A study of Saccharomyces cerevisiae and Saccharomyces paradoxus with 16 samples.

Results

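Isolated CUTs are the cryptic unstable transcripts that had no other annotated CUT, on either strand, within 7000 bp of either end. The rule uses positions alone and was applied in S288c, Σ1278b and N17 (*S.paradoxus*), where 271 of 5872 CUTs met it. There were 119 of 1724 CUTs in S288c (6.90%), 82 of 2021 in Σ1278b (4.06%) and 70 of 2127 in N17 (3.29%). JAY291 was left out of the comparison because its contigs are short. CUTs labelled chrXII, 331 in S288c, 372 in Σ1278b and 534 in N17, were left out as well because that label also holds CUTs of chromosome XIII. The whole series annotates 9377 CUTs in 4 strains.

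The study sequenced strand-specific poly(A) RNA of *rrp6*Δ and WT cells, with 2 libraries for each of the 8 groups. The *rrp6*Δ strains carry rrp6::KanMX with his3delta1, leu2delta0, ura3delta0 and met15delta0 in S288c, and rrp6::KanMX with his3delta1, leu2delta0 and ura3delta0 in Σ1278b. In N17 the deletion is rrp6::NatMX beside the HO::lox-Kan-lox that the N17 WT also carries. By the study's strain list, the S288c WT has his3delta1, leu2delta0 and ura3delta0, plus lys2delta0 in place of met15delta0. The Σ1278b WT has the ura3-52, leu2::hisG and his3::hisG alleles. The same list gives the *rrp6*Δ strains of S288c and Σ1278b as MATa and their WT strains as MATα. Where this holds, deletion and mating type cannot be told apart at genes that depend on mating type. The paper's methods name the S288c WT as BY4741, and this name was not reconciled with the listed genotype and mating type. All cells grew in YPD at 30 °C. Poly(A) selection was not the same for the replicates of the *S.cerevisiae* strains, nor for both species, so levels are not compared between strains. The deposited tables give 1 coverage for *rrp6*Δ and 1 for WT per CUT, each the authors' mean over the replicates, so no CUT has a replicate error and no test between *rrp6*Δ and WT was made. The tables hold no read counts. The study gives mapped reads per library, but those totals were not used here, and the number of reads behind a single value was not computed.

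CUTs are made by RNA polymerase II, mostly from the nucleosome-free regions at the ends of genes, since many yeast promoters fire in both directions. Nrd1 and Nab3, a pair of proteins that bind short motifs in the nascent RNA, terminate them early together with the helicase Sen1. The TRAMP complex then adds a short poly(A) tail, and the nuclear exosome with its nuclease Rrp6p degrades the transcript. In the absence of Rrp6p the transcripts accumulate, which is how CUTs are recognised.

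The 3′ ends of the most isolated and the most strongly accumulating S288c CUTs are shown because termination by Nrd1 and Nab3 is what sets CUTs apart from mRNAs. The last 120 nt are given from 5′ to 3′ on the transcribed strand, read from the RefSeq sequence of assembly R64, with the Nrd1 motifs GTAA and GTAG and the Nab3 motifs TCTT and CTTG in capitals. TCTT and CTTG overlap where TCTTG occurs. These ends are those called by the authors' model and are not mapped termini. The paper describes CUT 3′ ends as heterogeneous, and a minority of its S288c ends lay near mapped termination sites. CUT1402, CUT1031 and CUT1434 lay farthest from any other CUT, and CUT1877, CUT1484 and CUT1420 had the largest folds.
CUT1402, chrI:101867-101986, plus strand: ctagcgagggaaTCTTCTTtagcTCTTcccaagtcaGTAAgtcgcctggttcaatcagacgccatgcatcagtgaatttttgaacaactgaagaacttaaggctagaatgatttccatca
CUT1031, chrVI:16862-16981, plus strand: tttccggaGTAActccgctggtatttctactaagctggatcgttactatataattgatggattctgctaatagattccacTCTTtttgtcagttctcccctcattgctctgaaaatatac
CUT1434, chrXI:649870-649989, minus strand: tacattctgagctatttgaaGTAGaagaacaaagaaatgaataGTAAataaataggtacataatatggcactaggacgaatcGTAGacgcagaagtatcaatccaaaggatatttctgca
CUT1877, chrVII:337155-337274, minus strand: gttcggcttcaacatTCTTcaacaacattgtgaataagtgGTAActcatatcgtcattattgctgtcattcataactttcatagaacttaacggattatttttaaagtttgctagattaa
CUT1484, chrIX:370076-370195, plus strand: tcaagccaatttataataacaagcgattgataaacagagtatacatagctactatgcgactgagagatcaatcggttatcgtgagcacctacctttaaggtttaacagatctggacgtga
CUT1420, chrIX:321008-321127, minus strand: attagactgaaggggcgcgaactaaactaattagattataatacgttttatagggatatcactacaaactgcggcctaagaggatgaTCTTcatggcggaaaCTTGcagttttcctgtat

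Of these 6 ends, CUT1402, CUT1031 and CUT1877 held motifs of both proteins. CUT1434 held only Nrd1 motifs and CUT1420 only Nab3 motifs. CUT1484 held none of the 4, although its fold was the second largest of the S288c members. Across S288c, an Nrd1 motif stood in the last 120 nt of 75.6% of isolated CUTs (90 of 119) and 68.2% of other CUTs, and a Nab3 motif in 77.3% (92 of 119) and 79.9%. Of the single motifs GTAG differed most, with 48.7% of isolated and 39.9% of other CUTs on the transcribed strand and 31.1% and 22.3% on the opposite strand. Motifs of both proteins were present in 59.7% of isolated CUTs, against 54.6% of the 1593 other CUTs of at least this length. Over all S288c CUTs of this length, an Nrd1 motif was found in 68.8% and a Nab3 motif in 79.7%. On the opposite strand of the same windows the shares were lower, at 53.8% for Nrd1 motifs and 52.1% for Nab3 motifs in isolated CUTs and 53.0% and 60.8% in other CUTs. That strand is often a coding strand, as 62.2% of isolated and 60.8% of other CUTs overlap a coding sequence antisense. Whether the difference between the strands follows from this was not tested. Over the whole transcript, isolated CUTs had a median of 0.836 Nrd1 motifs per 100 nt and other CUTs 0.886. For Nab3 motifs the medians were 1.89 per 100 nt in isolated CUTs and 1.73 in other CUTs, and on the opposite strand 0.820 and 0.863. The GC content had a median of 38.6% in isolated CUTs and 38.2% in other CUTs. 

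Most isolated CUTs sat not far beyond the limit of 7000 bp. Their median distance to the nearest CUT was 8936 bp in S288c, 8846 bp in Σ1278b and 8338 bp in N17. For the other CUTs it was 1417 bp in S288c, 1136 bp in Σ1278b and 931 bp in N17. More than 10000 bp separated 45 S288c, 27 Σ1278b and 13 N17 CUTs from any other, and more than 20000 bp separated 4, 1 and 1. The share of isolated CUTs was highest in S288c, where the fewest CUTs were annotated on these 14 chromosomes.

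**Figure D1:**
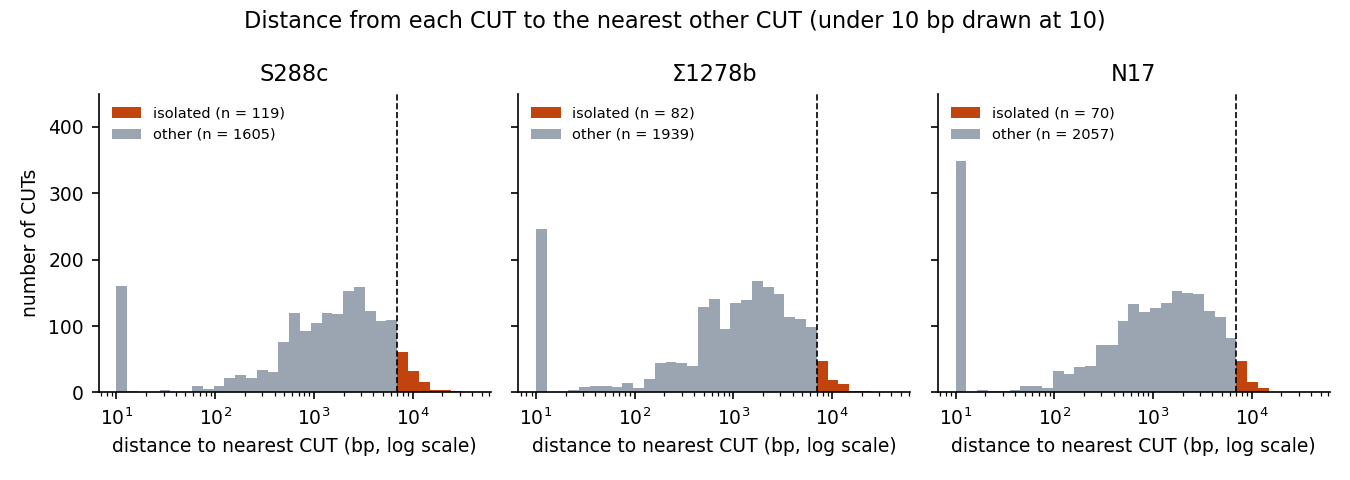
Distance from each CUT to the nearest other CUT (bp, log scale) against the number of CUTs, for S288c, Σ1278b and N17, with isolated CUTs in red and other CUTs in grey. The dashed line marks 7000 bp, and the isolated CUTs form the short right tail of each distribution, reaching 30466 bp in S288c, 26301 bp in Σ1278b and 20654 bp in N17.

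The most isolated CUT of S288c was CUT1402, on chromosome I from 101410 to 101986. It lay 31960 bp from the CUT to its left and 30466 bp from the CUT to its right. It starts 264 bp from the start codon of MAK16, a ribosome biogenesis gene on the opposite strand, and runs antisense into the 3′ end of LTE1, a regulator of mitotic exit, sharing 422 bp with its coding sequence. Its coverage was 8.40 in *rrp6*Δ and 0.310 in WT, a fold of 7.18. Fold here and throughout is the *rrp6*Δ coverage plus 1 over the WT coverage plus 1.

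The next most isolated S288c CUTs both stood at chromosome ends, with no further CUT on one side. CUT1031, on chromosome VI from 16680 to 16981, is the leftmost CUT of its chromosome and ends just before AGP3, an amino acid permease gene on the same strand. Its coverage was 5.69 in *rrp6*Δ, and its fold over WT was 3.34. CUT1434, the rightmost CUT of chromosome XI (649870 to 650055), overlaps no coding sequence, and its coverage was 8.73 in *rrp6*Δ and 1.47 in WT. In Σ1278b, 2 of the 3 most isolated CUTs were also terminal, CUT3874 on chromosome XIV at 26301 bp and CUT2337 on chromosome IV at 19710 bp. CUT2337 had 2.86 in *rrp6*Δ and 0.447 in WT. The third, CUT2234 on chromosome II, had neighbours 19705 and 24362 bp away, with a coverage of 2.55 in *rrp6*Δ and 0 in WT. In N17 CUT8668 on chromosome IV lay 28610 and 20654 bp from its neighbours, and its coverage was 14.6 in *rrp6*Δ and 1.27 in WT. CUT8456 on chromosome V followed at 14686 bp, with 11.0 in *rrp6*Δ and 0.758 in WT, and then CUT6734, the rightmost CUT of chromosome XI, at 13927 bp, with 1.88 in *rrp6*Δ and 0 in WT. The 3 strains have separate genome coordinates, which were not compared with each other.

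At the limit itself, CUT1650 of S288c was the last member inside, at 7006 bp, and CUT1741 the first outside, at 6953 bp. CUT1650 runs antisense over 96.7% of the coding sequence of MLS1, malate synthase of the glyoxylate cycle, and its fold was 4.79, against 2.76 for CUT1741. In Σ1278b CUT2086 was just inside at 7028 bp and CUT2807 just outside at 6984 bp, with folds of 2.47 and 3.23. In N17 CUT7783 at 7026 bp was inside and CUT8952 at 6978 bp outside, with folds of 2.85 and 10.6.

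Some isolated CUTs followed each other along the chromosome. Since the gap beyond 1 isolated CUT is also a gap of its neighbour, such runs come in part from the rule itself, and they are given as a description. In S288c 67 of the 119 stood in a run, namely 18 runs of 2, 6 runs of 3, 2 runs of 4 and 1 run of 5. In Σ1278b 35 of the 82 stood in 13 runs of 2 and 3 runs of 3, and in N17 20 of the 70 stood in 7 runs of 2 and 2 runs of 3. The run of 5 spans 52607 bp of chromosome IV, from 147211 to 199817, and its members differ widely. CUT107, antisense to the lactate dehydrogenase gene DLD1, had a coverage of 2.32 in *rrp6*Δ and 0.116 in WT. CUT1901, which starts 343 bp before the start codon of UGA3 and overlaps GLT1, glutamate synthase, on its own strand, had 24.1 in *rrp6*Δ and 10.1 in WT. CUT1775, divergent from NRP1, had 15.0 in *rrp6*Δ and 1.18 in WT. CUT108, antisense to the meiotic gene MSH5, had 2.33 in *rrp6*Δ and was the only isolated S288c CUT at 0 in WT. CUT1460, divergent from COP1, a coat subunit of secretory vesicles, closed the run with 8.99 in *rrp6*Δ and 0.864 in WT. Within 1 run the fold thus went as low as 2.26 for CUT1901 and as high as 7.31 for CUT1775. Where CUT1901 overlaps GLT1, its reads cannot be told apart from those of that gene.

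A run of 4 on chromosome IX, from 398236 to 425766, crosses the DAL genes for the use of allantoin as a nitrogen source. CUT327 is antisense to DAL1, allantoinase, and CUT1630 is antisense to DAL3 and starts 283 bp before the start codon of DAL7. Coverage of CUT1630 was 11.4 in *rrp6*Δ and 0.536 in WT, a fold of 8.07, whereas CUT327 had 2.97 in *rrp6*Δ and 0.647 in WT, a fold of 2.41. In the run of 4 on chromosome II, from 593444 to 634745, all members overlap a coding sequence on the opposite strand, and the folds lay between 2.08 (CUT1028) and 3.17 (CUT118). A run of 3 on chromosome XV includes CUT1224, antisense to HIS3 and divergent from the RNA helicase gene DED1. HIS3 carries the his3delta1 allele in the *rrp6*Δ and the WT strain alike.

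The clearest difference from other CUTs lay in where isolated CUTs start. In S288c 88 of 119 isolated CUTs (73.9%, 95% Wilson interval 65.4% to 81.0%) started within 500 bp before the start codon of a gene on the opposite strand, against 848 of 1605 other CUTs (52.8%). The interval covers counting error only, and as CUTs along a chromosome are not independent, no test was made. The share was lower the closer the nearest CUT lay. It was 73.9% beyond 7000 bp, 60.3% of 406 CUTs at over 3000 and up to 7000 bp, 57.9% of 568 at over 1000 and up to 3000 bp and 43.4% of 631 within 1000 bp. The distance from the CUT to the start codon was alike, with a median of 265 bp in isolated and 275 bp in other divergent CUTs (quartiles 198 to 364 bp and 210 to 356 bp). With a window of 250 bp the shares were 31.1% of isolated and 21.7% of other CUTs, and with 1000 bp they were 86.6% and 69.0%.

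Overlap with genes differed less. An antisense overlap with a coding sequence was found for 74 isolated CUTs (62.2%) and for 60.8% of other CUTs. An antisense overlap without a divergent start was found for 17 isolated CUTs (14.3%) and for 25.9% of other CUTs. The rest of the antisense CUTs also started divergently and are counted in both shares. A sense overlap was found for 4 isolated CUTs (3.36%) and for 8.04% of other CUTs, and 34.5% of isolated CUTs and 32.5% of other CUTs overlapped no coding sequence. The 4 with a sense overlap were CUT1901 in GLT1, CUT712 in ROM1, CUT835 in LDS2 and CUT1887 in CTF19, named here after their values were seen, and all of them also started divergently from another gene. An antisense CUT beginning within 500 bp of the stop codon, on either side of it, made up 54.6% of isolated CUTs and 52.0% of other CUTs. This window is wider than the 3′ nucleosome-free region that the paper sets around termination sites. Divergent starts here likewise go by distance to a start codon, not by a shared nucleosome-free region as in the paper. Of the 119, 14 (11.8%) were neither divergent nor overlapping a coding sequence, against 16.4% of other CUTs.

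**Figure D2:**
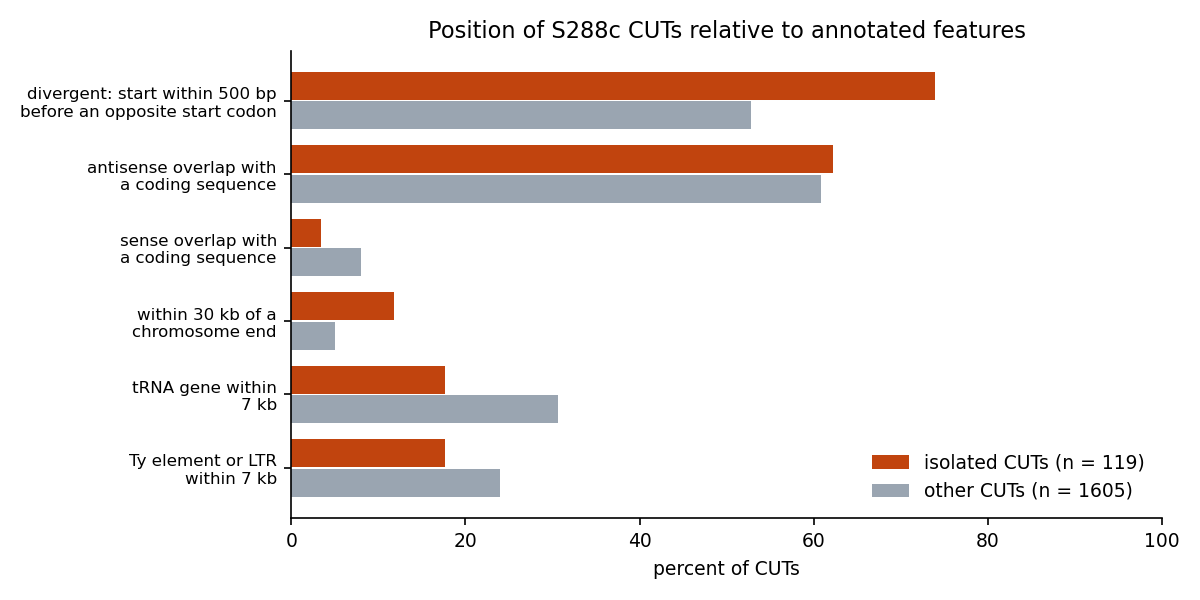
Percent of isolated CUTs (red, n = 119) and other CUTs (grey, n = 1605) of S288c with each feature of the R64 annotation. A divergent start stands out at 73.9% of isolated CUTs and 52.8% of other CUTs, whereas antisense overlap is nearly level at 62.2% and 60.8%.

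The surroundings of isolated CUTs were denser in coding sequence. Over the CUT and 7000 bp to each side, coding sequence made up a median of 78.6% around isolated CUTs and 72.6% around other CUTs, and the longest coding sequence reached a median of 3525 bp and 3045 bp. The coding share was graded, with a median of 75.1% around CUTs at over 3000 and up to 7000 bp from another, 72.7% at over 1000 and up to 3000 bp and 71.1% within 1000 bp. The median number of coding genes was 8 in both. Neighbouring genes in these windows pointed the same way in 44.8% of 627 gene pairs around isolated CUTs and 51.7% of 9442 pairs around other CUTs, and pointed apart in 28.1% and 24.4%. A tRNA gene lay in the window of 17.6% of isolated CUTs and 30.6% of other CUTs, and a Ty element or its long terminal repeat (LTR) in 17.6% and 23.9%. By length the order was the other way, as such elements made up a mean of 4.16% of the window around isolated CUTs and 2.31% around other CUTs, with a median of 0 in both. Reading frames of Ty elements were counted as coding sequence, here and for the starts and overlaps above. Values without them were not computed. Windows of neighbouring CUTs overlap, so the same genes are counted more than once, chiefly among other CUTs.

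A few members lay at annotated RNA genes or Ty elements. CUT2039, on chromosome XVI from 281072 to 281574, had by far the highest coverage of the isolated S288c CUTs, 145 in *rrp6*Δ and 52.3 in WT, a fold of 2.73. It lies on the strand of SNR17B, a gene of the U3 snoRNA that guides rRNA processing, and 88.7% of its length overlaps that gene, so its reads cannot be told apart from those of the snoRNA. CUT1883 on chromosome II overlaps a serine tRNA gene on the same strand over 21.9% of its length and had 21.8 in *rrp6*Δ and 6.40 in WT. CUT1477 and CUT1771 each overlap the end of a Ty1 element on the opposite strand. CUT1477 had 9.17 in *rrp6*Δ and 0.709 in WT, and CUT1771 had 14.8 in *rrp6*Δ and 1.74 in WT. CUT629 and CUT1191, named after their values were seen, overlap the snoRNA genes SNR64 and SNR87 on the opposite strand. No isolated CUT touched a centromere, and 6.72% of isolated CUTs and 8.72% of other CUTs lay within 30000 bp of one.

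Near chromosome ends isolated CUTs were more frequent. In S288c 14 of 119 (11.8%) lay within 30000 bp of an end, against 80 of 1605 other CUTs (4.98%). A CUT with no neighbour on one side meets the rule more easily, and 11 isolated CUTs were the first or last of their chromosome, against 16 other CUTs. Without these terminal CUTs the shares within 30000 bp of an end were 2.78% of isolated CUTs (3 of 108) and 4.03% of other CUTs, so the excess rested on the terminal ones. Terminal CUTs numbered 10 of 82 isolated CUTs in Σ1278b and 5 of 70 in N17. By chromosome, isolated CUTs of S288c made up between 0.885% of the 113 CUTs on chromosome V, with 1 member, and 14.9% of the 67 on chromosome IX, with 10. In Σ1278b chromosome I had the largest share, 16.1% of 31 CUTs, and in N17 chromosome VI had none among 59.

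Isolation did not go with a particular length. The median length was 453 nt in isolated and 404 nt in other CUTs of S288c (quartiles 244 to 652 nt and 248 to 675 nt), 435 nt and 439 nt in Σ1278b, and 425 nt and 469 nt in N17. The sign of the difference was not shared by the strains, and the quartiles overlapped broadly in each. CUTs of over 1500 nt made up 5.04% of isolated and 4.05% of other CUTs in S288c, but 2.44% and 5.57% in Σ1278b. The longest members show how many genes 1 such CUT can cross. CUT1131 of S288c, with 2810 nt, starts 49 bp from the small reading frame YBR196C-A and beside PGI1, which encodes phosphoglucose isomerase, crosses YBR196C-B and YBR197C whole and ends inside TAF5, a subunit of TFIID and SAGA. Its coverage was 6.24 in *rrp6*Δ and 1.40 in WT. CUT1393, with 2802 nt, is divergent from CKA1, a catalytic subunit of casein kinase 2, and antisense to nearly all of CAP2 and all of BCY1, the regulatory subunit of protein kinase A, with 8.32 in *rrp6*Δ and 2.15 in WT. CUT464, with 2177 nt, starts beside RRP9 and runs antisense over 72.6% of CTF4, a replication factor, with 3.41 in *rrp6*Δ and 0.345 in WT. The longest isolated CUTs of Σ1278b were CUT3550 with 3084 nt, CUT3221 with 1673 nt and CUT2483 with 1441 nt, and their folds were 3.29, 5.93 and 2.41. In N17 they were CUT9367 with 2526 nt, CUT6993 with 1894 nt and CUT7240 with 1780 nt, with folds of 3.62, 2.90 and 3.80.

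Coverage in *rrp6*Δ was also close to that of other CUTs. The median *rrp6*Δ coverage was 5.69 in isolated and 5.61 in other CUTs of S288c, 5.63 and 6.15 in Σ1278b, and 7.13 and 6.14 in N17. The median WT coverage was lower in isolated CUTs in each strain, at 0.638 against 0.737 in S288c, 0.439 against 0.643 in Σ1278b and 0.585 against 0.684 in N17. By gene context in S288c the order was not uniform. The WT median was 0.560 in isolated and 0.674 in other divergent CUTs. Among CUTs antisense without a divergent start it was 0.638 and 0.618. Among those neither divergent nor overlapping a coding sequence it was 1.51 and 1.10. The 78 other CUTs with only a sense overlap had 3.42, and no isolated CUT was of that kind. In Σ1278b the ratio of WT medians, 0.682, was the farthest from 1. WT coverage was highest among CUTs within 1000 bp of another, with medians of 0.886 in S288c, 0.805 in Σ1278b and 0.847 in N17. Compared with CUTs at over 3000 and up to 7000 bp alone, isolated CUTs of N17 had the higher WT median, 0.585 against 0.482. Listed at 0 in WT were 1 isolated CUT in S288c, 1 in Σ1278b and 9 in N17, that is 0.840%, 1.22% and 12.9% of isolated CUTs against 3.18%, 1.70% and 5.54% of other CUTs.

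**Figure D3:**
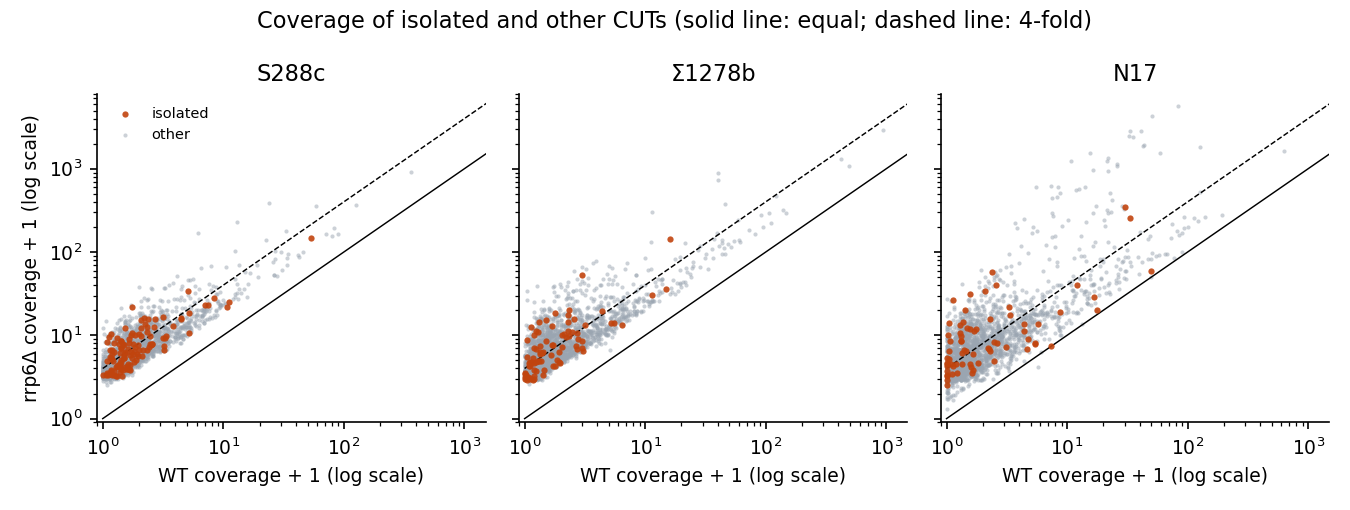
Coverage of each CUT in *rrp6*Δ (vertical axis) and in WT (horizontal axis), each plus 1 and on log scales, with isolated CUTs in red and other CUTs in grey. The isolated CUTs lie within the cloud of the others in all 3 strains, from a fold of 2.03 to 12.6 in S288c, 2.06 to 17.7 in Σ1278b and 1.02 to 24.2 in N17.

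The fold had a median of 3.39 in isolated and 3.37 in other CUTs of S288c, 3.91 and 3.60 in Σ1278b, and 3.81 and 3.57 in N17. For the 13 N17 CUTs farther than 10000 bp from any other, the median fold was 1.75 times that of the remaining N17 CUTs, against 1.07 times at 7000 bp. A fold of 4 or more was reached by 45 isolated CUTs in S288c (37.8%, 95% Wilson interval 29.6% to 46.8%), where it was reached by 31.9% of all CUTs. In Σ1278b 39 isolated CUTs reached it (47.6%, 37.1% to 58.2%), against 40.5% of all CUTs, and in N17 34 (48.6%, 37.2% to 60.0%), against 41.8%. Each share was above that over all CUTs of its strain, but its interval, which covers counting error only, included the latter. Intervals this wide cannot tell a small excess from none, so the shares are not read as a difference. With 0.1 in place of 1 added to both coverages, the shares were 88.2% of isolated and 78.5% of other CUTs in S288c, 84.1% and 80.3% in Σ1278b, and 75.7% and 75.3% in N17. Among CUTs at over 3000 and up to 7000 bp from another the shares were 31.5% in S288c, 42.6% in Σ1278b and 43.3% in N17.

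**Figure D4:**
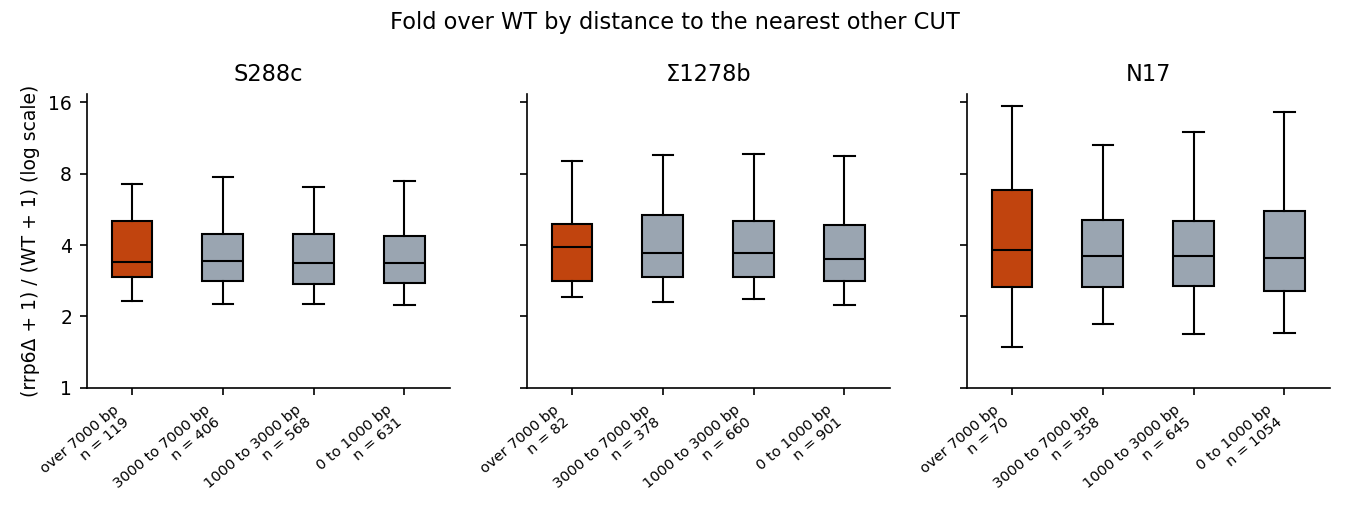
Fold of *rrp6*Δ over WT coverage, each plus 1, on a log scale by distance to the nearest other CUT, for S288c, Σ1278b and N17. Boxes show the quartiles with the median, whiskers the 5th and 95th percentiles, and red marks isolated CUTs, whose medians of 3.39, 3.91 and 3.81 differ little from those of the closer classes.

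The 3 S288c members with the largest folds all started within 500 bp before a start codon of the opposite strand. So did 73.9% of all isolated S288c CUTs. CUT1877 of S288c, on chromosome VII from 337155 to 337642, had 20.9 in *rrp6*Δ and 0.742 in WT, a fold of 12.6. It starts 263 bp from the start codon of NUP145, a nucleoporin gene, and 99.4% of it is antisense to SPC105, a kinetochore gene. CUT1484, on chromosome IX from 370059 to 370195, has only 137 nt, starts 150 bp from PAN1, an endocytosis gene, and had 9.25 in *rrp6*Δ and 0.179 in WT, a fold of 8.69. A glutamate tRNA gene lies 221 bp from it. CUT1420, on chromosome IX from 321008 to 321871, had 8.63 in *rrp6*Δ and 0.133 in WT, a fold of 8.50. It starts 470 bp from the start codon of BAR1, the protease that degrades α factor, and BAR1 is expressed in MATa cells, the mating type listed for the *rrp6*Δ strain only. The part of mating type in this fold was not tested.

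The next highest coverages in S288c belonged to CUTs that start beside coding genes. CUT1940 of S288c, on chromosome VI from 110175 to 110590, starts 244 bp from IES1, a subunit of the INO80 chromatin remodeller, and had 32.7 in *rrp6*Δ and 4.09 in WT, a fold of 6.61. CUT1923, on chromosome X from 497035 to 497194, starts 160 bp from RAD26, a gene of transcription-coupled repair, and had 27.2 in *rrp6*Δ and 7.41 in WT, a fold of 3.35. At the low end stood CUT1875 on chromosome IX (303457 to 303649), with 20.8 in *rrp6*Δ and 9.73 in WT, a fold of 2.03, and CUT1514, the rightmost CUT of chromosome II, with 9.65 in *rrp6*Δ and 4.21 in WT, a fold of 2.05. Neither of them overlaps a coding sequence or starts divergently from one.

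In Σ1278b the highest *rrp6*Δ coverage was that of CUT4365 on chromosome V (126322 to 127401), with 144 in *rrp6*Δ and 15.0 in WT, a fold of 9.06. CUT4313, the leftmost CUT of chromosome I, followed with 51.5 in *rrp6*Δ and 1.97 in WT and had the largest fold, 17.7. CUT4263 on chromosome XVI came next in coverage, with 35.1 in *rrp6*Δ and 13.9 in WT, a fold of 2.43. CUT3928 on chromosome XV had a fold of 11.1, from 13.6 in *rrp6*Δ and 0.309 in WT. The lowest fold, 2.06, was that of CUT3874, which was also the most isolated CUT of this strain, with 12.2 in *rrp6*Δ and 5.40 in WT. CUT3071 on chromosome XVI came next, with 5.39 in *rrp6*Δ and 2.02 in WT, a fold of 2.12.

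The folds of the 70 isolated CUTs of N17 lay between 1.02 and 24.2. CUT9084 on chromosome XVI (51627 to 52067) had 56.7 in *rrp6*Δ and 1.39 in WT, a fold of 24.2, and CUT8910 on chromosome IX had 25.7 in *rrp6*Δ and 0.131 in WT, a fold of 23.6. CUT8954 on chromosome IV had 30.1 in *rrp6*Δ and 0.567 in WT, a fold of 19.8. CUT9232, the rightmost CUT of chromosome V, had the highest coverage, 342 in *rrp6*Δ and 29.2 in WT, and CUT9215 on chromosome VII had 254 in *rrp6*Δ and 32.0 in WT. In contrast, CUT7945 on chromosome XVI had 6.45 in *rrp6*Δ and 6.30 in WT, a fold of 1.02, and CUT8809 on chromosome IX had 18.9 in *rrp6*Δ and 16.7 in WT, a fold of 1.12. In N17, 8 of the 70 isolated CUTs had a fold under 2, and 201 of the 2057 other CUTs. In S288c and Σ1278b no isolated CUT did, and 16 other CUTs did in each. All 8 of these N17 members still had the higher coverage in *rrp6*Δ, with folds up to 1.90 for CUT8151, which had 7.93 in *rrp6*Δ and 3.70 in WT. CUT7945, CUT8809 and CUT9090 were the closest to no change, and CUT9090, on chromosome XV, had 58.7 in *rrp6*Δ and 48.8 in WT. CUT8910 and CUT8809 belong to the same run of 3 isolated CUTs, so a stretch of 21576 bp held the second highest and the second lowest fold of the isolated N17 CUTs.

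Isolation was compared between Σ1278b and N17 at CUTs that the study lists as present in all 4 strains. That list was chosen by the study on these samples and serves here only to pair CUTs. S288c was not paired because the positions under its name in the list are those of Σ1278b. Of the 855 listed CUTs, 711 were used, as the rest are labelled chrXII. The list held 31 of 82 isolated CUTs of Σ1278b (37.8%) and 35.1% of the others, and 24 of 70 isolated CUTs of N17 (34.3%) and 33.4% of the others. Isolated CUTs were therefore listed in all 4 strains about as often as the rest. Of 711 pairs, all on the same chromosome and strand in both strains, 7 were isolated in both. These are 22.6% of the 31 pairs isolated in Σ1278b and 29.2% of the 24 isolated in N17, whereas 3.38% of all pairs were isolated in N17 and 4.36% in Σ1278b. Partners of isolated Σ1278b CUTs had a median distance of 4714 bp to the nearest CUT in N17, against 1192 bp over all pairs, and partners of isolated N17 CUTs had 3386 bp in Σ1278b, against 1365 bp.

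**Figure D5:**
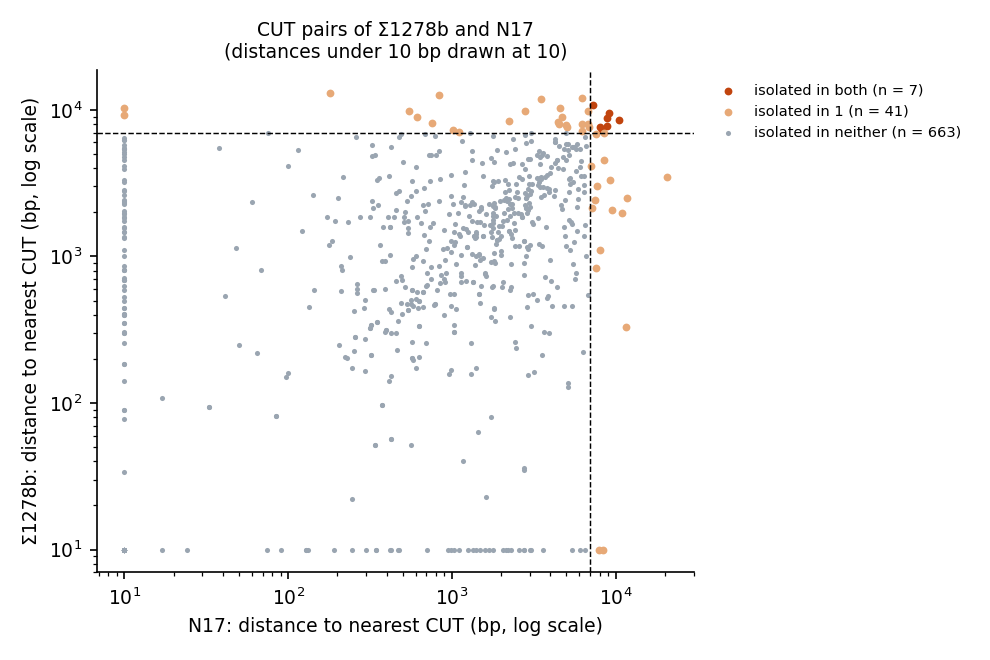
Distance to the nearest other CUT in Σ1278b (vertical axis) and in N17 (horizontal axis) for 711 pairs of CUTs, in bp on log scales, with dashed lines at 7000 bp. The 7 pairs isolated in both strains are in the upper right, and the 41 isolated in only 1 strain lie along the other outer fields.

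The 7 shared pairs lay on chromosomes IV, VII, X, XI and XV, with 1 pair each, and on chromosome IX, with 2. Poly(A) selection was not the same for both species, so the values of a pair are listed per strain and not compared. The pair on chromosome X, CUT8546 in N17 and CUT3831 in Σ1278b, had folds of 10.1 and 11.1, with 12.2 in *rrp6*Δ and 0.300 in WT in N17 and 11.5 in *rrp6*Δ and 0.127 in WT in Σ1278b. The pair on chromosome XI, CUT8104 in N17 and CUT3511 in Σ1278b, had folds of 6.54 and 8.40. On chromosome VII the folds were 5.23 for CUT8735 in N17 and 10.5 for CUT4085 in Σ1278b. A pair on chromosome IX, CUT6993 in N17 and CUT3550 in Σ1278b, joined the second longest and the longest member of their strains, with 1894 nt and 3084 nt and folds of 2.90 and 3.29. Of the 7, the other pair on chromosome IX had the lowest fold in N17, 2.54 for CUT9333, and 3.91 for CUT3702 in Σ1278b.

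Runs of isolated CUTs in S288c and Σ1278b could not be matched by coordinates, but a pair of them on the same chromosomes had like spans. On chromosome X, S288c had a run of 3 spanning 21110 bp and Σ1278b a run of 3 spanning 21073 bp. The members were in strand order plus, minus and minus in both, but they were not paired with each other. In order of position the folds were 6.47, 3.35 and 4.91 in the S288c run (CUT1249, CUT1923 and CUT1093). In the Σ1278b run they were 11.1, 2.67 and 4.85 (CUT3831, CUT3915 and CUT3664). On chromosome XV the runs span 40994 bp in S288c and 42207 bp in Σ1278b, and there the middle members lay on different strands. These runs were picked out after their positions were seen, and their folds are listed per strain and not compared.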

How the data were processed

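RNA-seq was done by the authors on 16 libraries, 2 per group. Reads were aligned with Bowtie 0.12.7 and handled with bedtools 2.16.2, per the submitters' processing notes. The authors kept unique alignments, corrected coverage for first nucleotide bias and mappability, scaled it by mapped reads, averaged the replicates, called CUTs with a hidden Markov model, filtered them and joined close ones. The deposited coverage is thus 1 mean per genotype and CUT. Since close CUTs were joined and weak ones dropped, an isolated CUT may have had neighbours below the authors' coverage floor. A further deposited column, the average fold change, is the authors' own comparison and was not used.

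Distances were the bases between CUTs on the same chromosome label, regardless of strand. Fold was (*rrp6*Δ + 1)/(WT + 1), and a fold of 4 was the call. Positions count from 1. S288c coordinates, labelled sacCer3, fit inside the chromosomes of RefSeq assembly R64, from which genes and sequences were read. Genomes of Σ1278b and N17 were not used here. Medians, quartiles and shares were described without a test, as CUTs are not replicates. Members, lists and limits were chosen with earlier results of these data known. CUTs named are, per strain, the 3 farthest, 3 longest, 3 with the highest *rrp6*Δ coverage, 3 highest and 2 lowest in fold, those next to the limit, members of runs and shared pairs (added later), and S288c CUTs at tRNA genes, Ty elements or centromeres. Alternatives were distances of 5000 and 10000 bp, same-strand neighbours, a length of 200 nt, leaving out the 25% of CUTs lowest in *rrp6*Δ coverage or terminal CUTs, and a pseudocount of 0.1. Leaving out CUTs listed outside the coverage order of the table, and all alternatives for divergent starts, were added after the data were seen. The scripts were tested on simulated positions. Tables were made with pandas 2.3.3 and NumPy 2.4.6 under Python 3.11.15, intervals with SciPy 1.17.1 and plots with matplotlib 3.10.9.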

Additional observations from a re-analysis of the deposited data

How the results depend on the processing

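No paired analysis was possible because the tables hold only means over the replicates, and for the same reason no replicate could be left out. Of 119 recomputed values, 97 stayed within the set range of the reported value, namely 1.5 times for counts, 1.2 times for ratios of medians and the Wilson interval for shares. The number of isolated CUTs follows from the limit: at 5000 bp it was 259 in S288c, 214 in Σ1278b and 190 in N17, at 10000 bp 45, 27 and 13, and with neighbours of the same strand only 434, 433 and 406. The ratio of median WT coverage, isolated over other, became 0.848 at 5000 bp in Σ1278b and 0.909 without the 25% of CUTs lowest in *rrp6*Δ coverage. In N17 at 10000 bp, where 13 CUTs were left, the ratio was 1.12 for length, 1.69 for *rrp6*Δ coverage and 1.75 for fold, and a pseudocount of 0.1 gave 1.48 for fold. The share with a fold of 4 or more was 50.6% of isolated and 40.4% of other CUTs in S288c, and 64.3% and 51.4% in Σ1278b, without the 25% lowest. With a pseudocount of 0.1 it was 88.2% and 78.5% in S288c, 84.1% and 80.3% in Σ1278b, and 75.7% and 75.3% in N17. The share of divergent starts in S288c was 31.1% with a window of 250 bp and 86.6% with 1000 bp, against 21.7% and 69.0% of other CUTs, and it was at least 65.6% under the remaining alternatives, against at most 54.9% of other CUTs. Ratios of median fold lay below 1 in at least 1 alternative in each strain (lowest 0.988 in S288c, 0.986 in Σ1278b and 0.979 in N17), so a higher fold of isolated CUTs was not a stable order. The ratio of median WT coverage stayed below 1 in S288c and Σ1278b and reached 1.02 in N17. With 1 mean per CUT, small differences cannot be set against replicate error.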
